A study of Mus musculus with 8 samples.

Results

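The comparison described here is the loss of leptin in mouse liver that also lacks SHP: the 2 arrays of OB-/-/SHP-/- mice were set against the 2 arrays of SHP-/- mice, which makes 4 of the 8 arrays measured. All probe sets other than the array's own controls were used, 22626 in all, and those naming a single gene gave 12393 genes. Both groups carry the SHP knockout, so they differ in the labels only by the leptin knockout (OB-/-). The other 4 arrays came from wild-type mice and from OB-/- mice with intact SHP, 2 each. All animals were on a C57BL background and ate standard chow, and the labels give neither their age nor their sex. Both knockouts are germline losses that affect every tissue, so a change in liver may follow from liver cells or from the rest of the body. Whether the 2 arrays of a genotype are 2 animals is not said in the labels, and p-values therefore measure the spread between these arrays, which may be technical.

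Leptin is a hormone made by fat cells that lowers food intake through its receptor in the brain, and mice without it overeat, become obese and store fat in the liver. SHP, encoded by Nr0b2, is an orphan nuclear receptor without a DNA-binding domain. It represses other transcription factors, above all those that switch on bile acid synthesis, and in liver it is induced by the bile acid receptor FXR. Much of the sex difference in mouse liver is set by the temporal pattern of growth hormone from the pituitary, which acts through STAT5B, and genes of male and female liver are the usual readout of that axis.

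Values are on a log2 scale throughout, so 1 unit is a 2-fold difference, and a difference is OB-/-/SHP-/- minus SHP-/- unless stated. A gene was called when its limma p-value, with the Benjamini-Hochberg adjustment for all 12393 genes, was below 0.05. The arrays of a genotype agreed closely, with a correlation across genes of 0.993 between the SHP-/- arrays and 0.992 between the OB-/-/SHP-/- arrays, against 0.976 to 0.981 between the groups. Some genes nevertheless lay more than 2 log2 units apart between arrays of the same genotype, 17 in SHP-/- and 4 in OB-/-/SHP-/-. The 3′ minus 5′ signal of Actb, a measure of RNA integrity, was 1.25 and 1.35 in SHP-/- and 0.93 and 0.79 in OB-/-/SHP-/-, so it moved with the groups, and its part in the results was not tested. The Y-linked gene Eif2s3y read between 6.57 and 7.50 on all 8 arrays. Xist, which is transcribed from the inactive X of females, read 7.41 on OB-/- replicate 1 and 4.31 to 4.70 on the other 7 arrays, so that array stands apart in the comparison with intact SHP.

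The probe set for Nr0b2, the targeted gene, still gave a signal in liver labelled SHP-/-. It read 7.78 and 8.31 in SHP-/- and 7.11 and 6.66 in OB-/-/SHP-/-, against 8.74 and 8.71 in wild-type and 8.01 and 8.01 in OB-/-. The SHP-/- arrays lay below wild-type, and the OB-/-/SHP-/- arrays were the lowest of the 8. The difference between the 2 groups without SHP was -1.16 (SE 0.19), adjusted p = 0.00372. The labels do not place its probes inside or outside the deleted stretch, so this probe set is no check of the knockout. Lep itself read between 3.16 and 3.53 on all 8 arrays, near the lowest values of the platform, and its transcript in liver therefore checks nothing.

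Loss of leptin without SHP changed 1311 of 12393 genes, which is 10.6% of all genes tested. Of these, 614 genes rose (4.95%) and 697 fell (5.62%), and 318 of the calls were at least 2-fold, 167 higher and 151 lower. Every count of a gene list below is to be set beside the shares of 4.95% and 5.62%. The median difference over all genes was 0.03, with a median SE of 0.15. At an unadjusted p below 0.05 the share was 25.7%, and the arrays of the 2 groups did not overlap for 53.9% of genes, higher for 29.3% and lower for 24.6%. The count rested on individual arrays: it was 600 without OB-/-/SHP-/- replicate 2 and 717 without SHP-/- replicate 2, and 411 of the 1311 genes stayed called whichever array was left out.

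**Figure D1:**
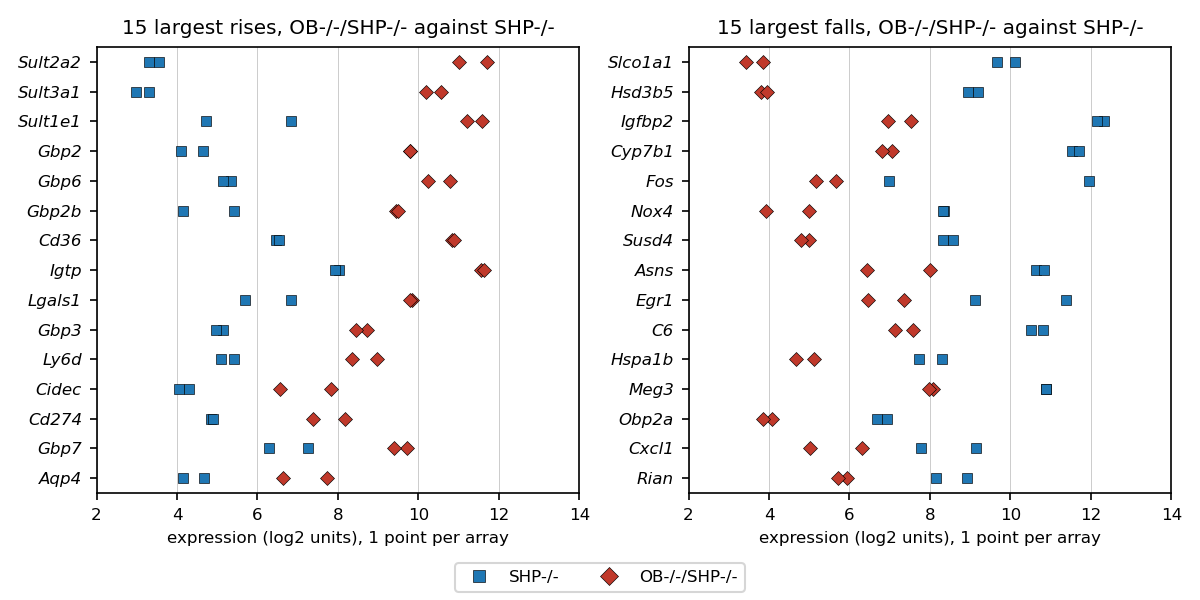
Expression (log2 units, horizontal axis) of the 15 genes that rose most and the 15 that fell most, 1 point per array, squares for SHP-/- and diamonds for OB-/-/SHP-/-. For most genes the 2 arrays of a genotype lie close together, and the widest gap is that of Fos, at 11.95 and 6.98 in the 2 SHP-/- arrays.

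Genes that differ between male and female liver were called more often than the 10.6% of all genes. All gene lists were chosen with earlier results of these data known, so such shares are descriptions and no tests. Of 17 measured male-biased genes, 11 fell and 0 rose, with a median difference of -1.0 for the list. Of 17 measured female-biased genes, 8 rose and 0 fell, with a median of 0.76. Slco1a1, an organic anion transporter of the hepatocyte's blood side that male mouse liver makes in excess, was among those that fell. Its levels were 10.11 and 9.67 in SHP-/- and 3.85 and 3.42 in OB-/-/SHP-/-, a difference of -6.25 (SE 0.18), adjusted p = 1.08e-08. Both OB-/-/SHP-/- arrays thus lay near the bottom of the array's range, far below both SHP-/- arrays, and the low end of the scale may limit the size of this difference.

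Hsd3b5, a steroid-reducing enzyme of male mouse liver, read 9.19 and 8.95 in SHP-/- and 3.81 and 3.94 in OB-/-/SHP-/-. Cyp7b1, the oxysterol hydroxylase of the alternative bile acid pathway and also male-biased, read 11.54 and 11.72 in SHP-/- and 7.06 and 6.82 in OB-/-/SHP-/-. Neither pair of groups overlapped, which was so for 53.9% of all genes. The differences of Hsd3b5 and Cyp7b1 were -5.20 (SE 0.18) and -4.69 (SE 0.18), adjusted p = 1.73e-08 and 4.8e-08. Susd4, a complement-regulating membrane protein, fell by 3.56 and C6, a component of the membrane attack complex, by 3.31. C8a, another component of that complex, fell by 2.53, and the urinary pheromone carrier Mup3 by 0.87, though the Mup genes are near-identical copies and probe sets may read several of them. Cyp2d9, a male-specific P450, had 12.15 and 12.14 in SHP-/- and 12.01 and 10.90 in OB-/-/SHP-/- and did not pass.

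On the female-biased side the leading genes were sulfotransferases, enzymes that add sulfate to steroids and other small molecules. Sult2a2, a hydroxysteroid sulfotransferase, read 3.31 and 3.56 in SHP-/- and 11.70 and 11 in OB-/-/SHP-/-, a difference of 7.91 (SE 0.25), adjusted p = 1.08e-08. Sult3a1, an amine sulfotransferase, read 2.98 and 3.31 against 10.55 and 10.18, a difference of 7.22 (SE 0.27), adjusted p = 3.13e-08. Both went from the bottom of the array's range to well above its median. Their SHP-/- levels were about as low as those of Lep, near the low end of the scale, so no fold is given for them. Sult1e1, the oestrogen sulfotransferase, read 4.73 and 6.83 in SHP-/- and 11.59 and 11.20 in OB-/-/SHP-/-, so its SHP-/- arrays differed between themselves by more than 2 units, and its difference was 5.62 (SE 0.47), adjusted p = 2.77e-05. Across the 13 sulfotransferase and sulfate donor genes measured, 4 rose and 1 fell, so most of the family did not pass. The fourth rise, that of Sult1b1, was lost without any of 6 arrays, with an adjusted p of up to 0.244, and the falls became 3 without OB-/-/SHP-/- replicate 1. The member that fell was Sult5a1, with 6.13 and 6.73 in SHP-/- and 5.00 and 5.11 in OB-/-/SHP-/-.

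Hao2, a peroxisomal hydroxyacid oxidase, and Cyp17a1, the steroid 17-hydroxylase and lyase, rose by 2.43 and 2.24 and completed the female-biased genes that rose over 2 units. Cyp2b9 and Cyp2b13, P450 genes of female liver, went separate ways on the 2 OB-/-/SHP-/- arrays. Cyp2b13 read 4.03 and 4.49 in SHP-/- and 4.55 and 10.31 in OB-/-/SHP-/-, and Cyp2b9 read 8.34 and 7.51 against 4.34 and 10.74. For both genes replicate 1 was low and replicate 2 was high, near the OB-/- arrays at 10.61 and 10.56 and 11.44 and 11.37, and neither gene passed, with adjusted p = 0.131 and 0.895.

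**Figure D2:**
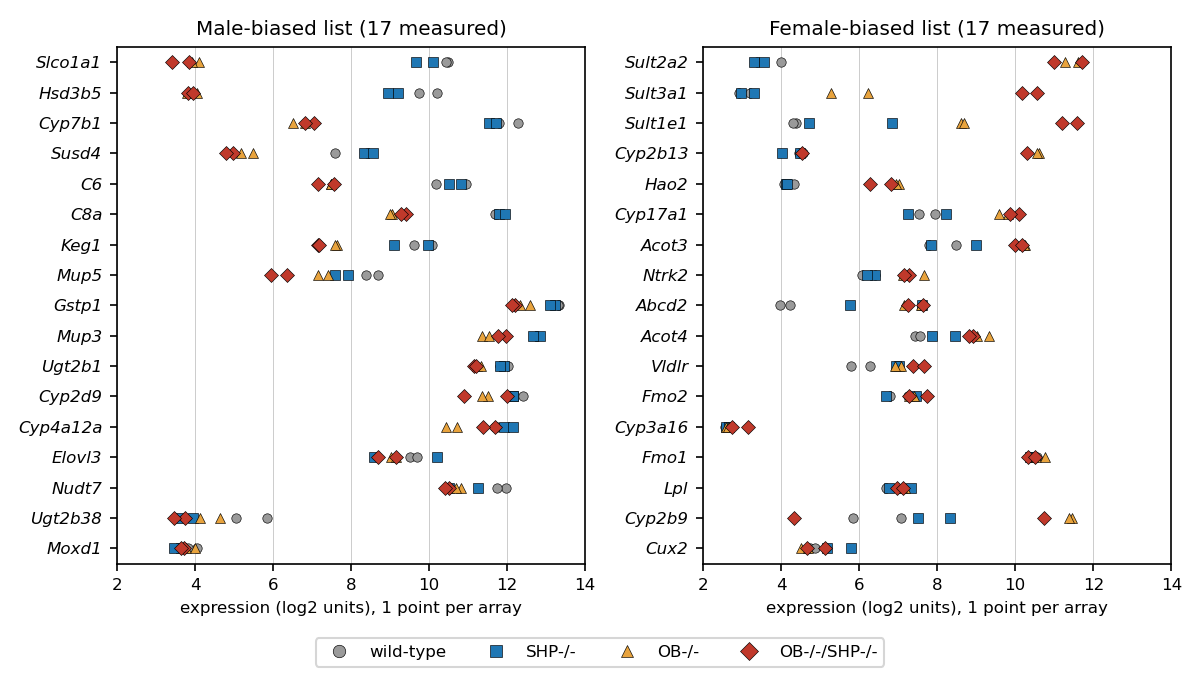
Expression (log2 units, horizontal axis) of the 17 measured male-biased genes on the left and the 17 measured female-biased genes on the right, 1 point per array for all 4 genotypes. Slco1a1, Hsd3b5 and Cyp7b1 lie far lower in both genotypes without leptin, while the 2 OB-/-/SHP-/- arrays part for Cyp2b13 and Cyp2b9.

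Genes of the growth hormone and IGF axis fell in part: 7 of 16 measured fell and 0 rose, with a median of -0.50. Igfbp2, an IGF-binding protein secreted by hepatocytes, read 12.34 and 12.15 in SHP-/- and 6.95 and 7.54 in OB-/-/SHP-/-, a difference of -5.00 (SE 0.19), adjusted p = 4.32e-08. Socs2, a growth hormone target that damps the receptor, read 7.90 and 7.17 in SHP-/- and 5.04 and 5.56 in OB-/-/SHP-/-, a difference of -2.23 (SE 0.24). Onecut1, a liver transcription factor downstream of growth hormone, fell by 0.99, and Igfals, which holds IGF in its circulating complex, by 0.97. Socs3, a brake on cytokine and leptin receptors, fell by 1.27. Cish, a further STAT5 target, fell by 1.11 and Igf1 by 0.60, but Igf1 lost its call without any array other than SHP-/- replicate 2, with an adjusted p of up to 0.221, and Cish lost it without SHP-/- replicate 1 or OB-/-/SHP-/- replicate 2, with up to 0.128. Other probe sets of Igf1 gave -0.76 and -0.86, with adjusted p = 0.0141 and 0.0247 in a limma fit over all probe sets. In that fit the brighter one used here had 0.0511. The receptor Ghr had 11.41 and 11.23 in SHP-/- and 11.33 and 10.87 in OB-/-/SHP-/-, with adjusted p = 0.46.

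Single genes outside the lists also fell, most of them named after their values were seen. Egfr, the receptor for EGF, fell by 2.18, though 2 of its 5 probe sets, both dim, did not pass. Lifr, the receptor for leukaemia inhibitory factor, fell by 2.16, while another of its probe sets, at a mean of 8.52 in SHP-/-, gave -0.35 and did not pass. Avpr1a, the vasopressin receptor of hepatocytes, fell by 2.50, and Cdh1, the epithelial cadherin, by 2.23. The forkhead factors Foxa1 and Foxa3, which open liver enhancers, fell by 1.62 and 1.66, and the homeobox factor Hhex by 1.69. Nox4, an oxidase that makes hydrogen peroxide, read 8.35 and 8.31 in SHP-/- and 4.98 and 3.92 in OB-/-/SHP-/-. Meg3 and Rian, maternally expressed non-coding RNAs of a single imprinted cluster, fell by 2.87 and 2.71. The olfactory-type lipocalin Obp2a fell by 2.84.

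Genes of fat uptake and storage rose in part, and none of them fell. Of 14 lipid droplet genes, 7 rose and 0 fell, with a median of 0.62. Of 14 genes of fatty acid uptake and PPAR gamma, 6 rose and 0 fell, with a median of 0.35. Cd36, the fatty acid translocase, read 6.46 and 6.54 in SHP-/- and 10.83 and 10.88 in OB-/-/SHP-/-, a difference of 4.35 (SE 0.14) or 20.4-fold, adjusted p = 1.08e-08. The arrays of each of these genotypes differed by no more than 0.08 for this gene, and the groups lay far apart. Pparg, the nuclear receptor that drives fat storage, read 5.42 and 5.03 against 7.29 and 7.49, a difference of 2.17 (SE 0.18), adjusted p = 2.28e-05.

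Among the droplet proteins, Cidec, which fuses lipid droplets, read 4.06 and 4.29 in SHP-/- and 6.57 and 7.82 in OB-/-/SHP-/-. Its difference was 3.02 (SE 0.34), and its OB-/-/SHP-/- arrays were higher without overlap, as for 29.3% of all genes. Fitm1, which helps to form droplets, and Plin4, a droplet coat protein, rose by 2.26 and 2.23. Cidea, a relative of Cidec best known from brown fat, read 3.22 and 3.63 in SHP-/- and 5.35 and 5.95 in OB-/-/SHP-/-. Its rise of 2.23 left it far below the OB-/- arrays, which read 10.07 and 10.27. The count of 7 droplet genes became 4 without SHP-/- replicate 1 or without OB-/-/SHP-/- replicate 2, the members lost in both cases being the lipase Pnpla2, its activator Abhd5 and its inhibitor G0s2. Plin2, the common coat protein of liver droplets, had 12.08 and 12.62 in SHP-/- and 12.75 and 12.83 in OB-/-/SHP-/- and did not pass, adjusted p = 0.198.

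Fatty acid and triglyceride synthesis was divided. Of 22 genes, 7 rose and 1 fell, with a median of 0.36, and the rises became 4 without OB-/-/SHP-/- replicate 2. Me1, the malic enzyme that supplies NADPH, read 9.47 and 9.23 in SHP-/- and 11.43 and 11.68 in OB-/-/SHP-/-, adjusted p = 4.6e-06. Acss2, which makes acetyl-CoA from acetate, rose by 1.72, Mogat1, a monoacylglycerol acyltransferase, by 2.03 and the desaturase Scd2 by 2.12. Thrsp, a nuclear protein that follows lipogenesis, rose by 2.73, although its SHP-/- arrays read 10.64 and 8.40, and without OB-/-/SHP-/- replicate 2 its adjusted p was 0.051. Acacb, an acetyl-CoA carboxylase, rose by 0.99 and the desaturase Scd1 by 0.81, with 2.92 on a second probe set. Both lost their calls without OB-/-/SHP-/- replicate 2, Acacb also without SHP-/- replicate 1 and Scd1 also without SHP-/- replicate 2, with an adjusted p of up to 0.0773 and 0.123. Other enzymes of the pathway did not pass. Fasn, the fatty acid synthase, read 8.51 and 8.80 in SHP-/- and 8.66 and 9.70 in OB-/-/SHP-/-, adjusted p = 0.262. Acly, which makes cytosolic acetyl-CoA from citrate, read 8.95 and 8.90 against 8.78 and 8.60, adjusted p = 0.307, and Elovl6, a fatty acid elongase, had adjusted p = 0.405. A second, dimmer Elovl6 probe set gave 1.32, with adjusted p = 0.051 in a limma fit over all probe sets. The gene that fell was Elovl2, an elongase of polyunsaturated fatty acids, whose call was lost without SHP-/- replicate 1 or OB-/-/SHP-/- replicate 1.

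In fatty acid oxidation and ketone synthesis, 7 of 32 genes rose and 1 fell, and the rises became 2 without OB-/-/SHP-/- replicate 2. Bdh1, a ketone body dehydrogenase, was the gene that fell, and it lost its call without either SHP-/- array or OB-/-/SHP-/- replicate 1. Pex11a, which multiplies peroxisomes, rose by 1.35. The acyl-CoA thioesterases Acot2 and Acot3 rose by 0.97 and 1.67, the latter with an adjusted p of 0.0511 without OB-/-/SHP-/- replicate 2. Cpt1a, the gate of mitochondrial fatty acid entry, had 11.91 and 11.99 in SHP-/- and 11.96 and 12.02 in OB-/-/SHP-/-, a difference of 0.04 (SE 0.13). Of 28 respiratory chain genes 1 was called (3.57%), beside 10.6% of all genes. It was Ndufb8, which lost its call when any 1 of the 8 arrays was left out.

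**Figure D3:**
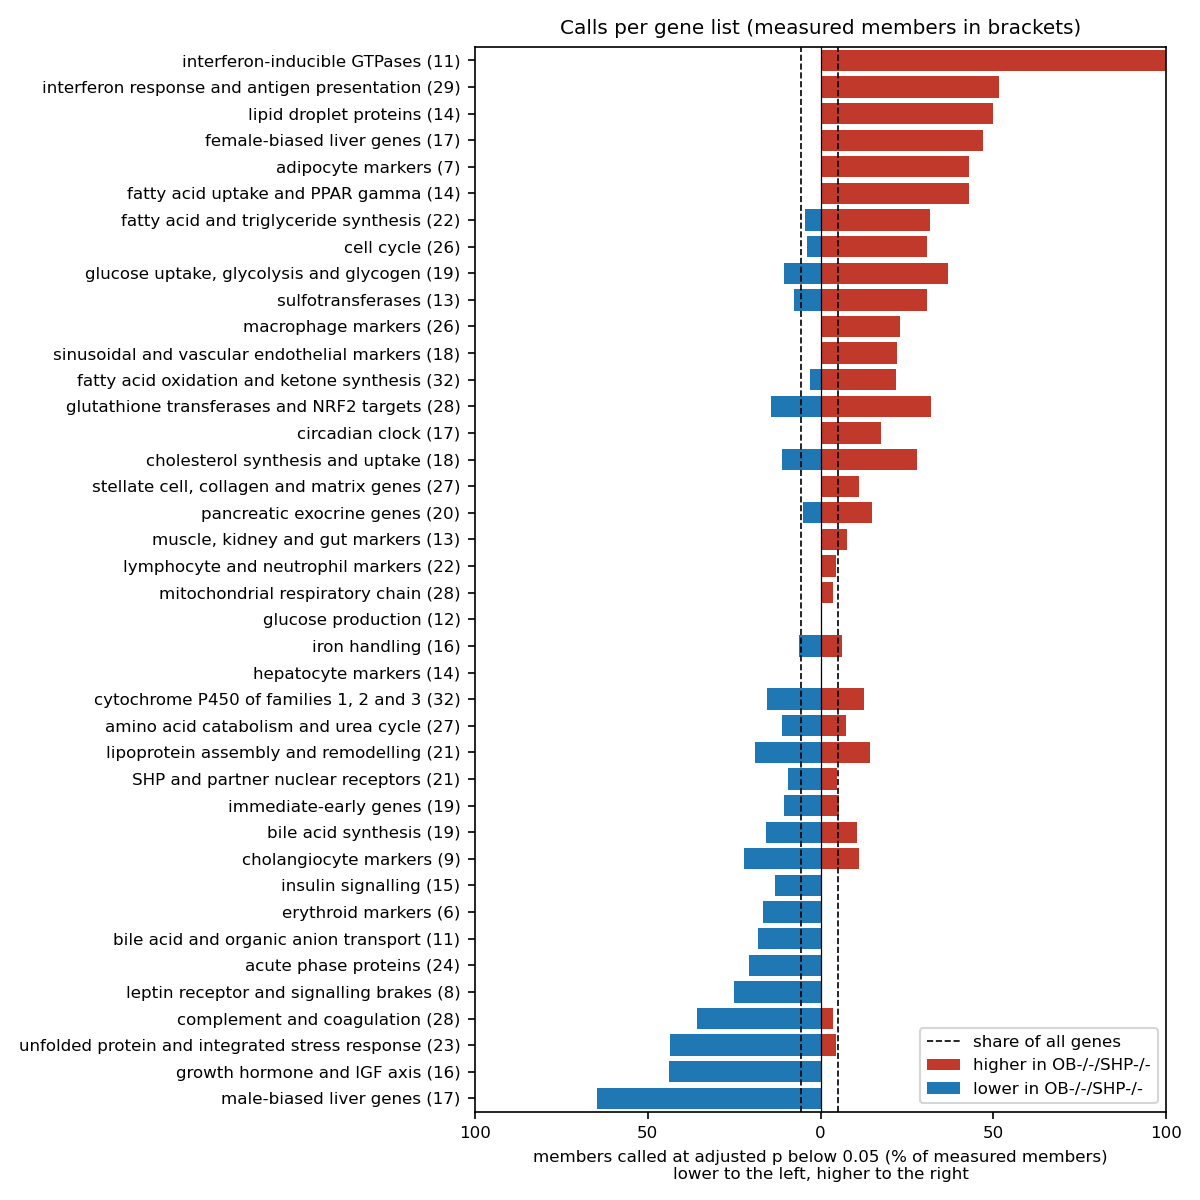
Share of each gene list's measured members (%, horizontal axis) called higher to the right or lower to the left in OB-/-/SHP-/- against SHP-/-, with dashed lines at the 4.95% higher and 5.62% lower of all genes tested. All measured interferon-inducible GTPases were called higher and 64.7% of the male-biased genes lower, while glucose production and the hepatocyte markers have no call.

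Cholesterol and bile acid genes moved in both directions. Of 18 cholesterol synthesis and uptake genes, 5 rose and 2 fell. Nsdhl, a late enzyme of the pathway, rose by 1.35, while Stard4, a cytosolic sterol carrier, fell by 1.46. The other gene that fell, the sterol-sensing factor Srebf2, lost its call without any array but SHP-/- replicate 1. Without OB-/-/SHP-/- replicate 2 the rises became 1. Of 19 bile acid synthesis genes, 2 rose and 3 fell, and the falls became 1, that of Cyp7b1, without that same array. Akr1d1, the steroid 5-beta-reductase, rose by 1.24 and Cyp39a1, an oxysterol hydroxylase, by 1.06. Cyp7a1, the rate-limiting enzyme of the classical pathway and a textbook target of SHP, read 10.43 and 10.38 in SHP-/- and 9.82 and 8.85 in OB-/-/SHP-/-. The OB-/-/SHP-/- arrays lay lower without overlap, as for 24.6% of all genes, but replicate 2 was far below replicate 1. Its difference of -1.07 (SE 0.30) had adjusted p = 0.0455, and the call was lost without either SHP-/- array, either OB-/- array or OB-/-/SHP-/- replicate 2, with an adjusted p of up to 0.309. Cyp8b1, the sterol 12-hydroxylase, had adjusted p = 0.0502, just above the threshold.

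Abcb11, the bile salt export pump, fell by 0.96 and was, beside Slco1a1, the other transporter called among 11. Of 21 genes of lipoprotein assembly and remodelling, 3 rose and 4 fell. Pltp, the phospholipid transfer protein, read 7.83 and 7.98 in SHP-/- and 9.79 and 10.08 in OB-/-/SHP-/-, a difference of 2.03 (SE 0.15). Apoa4, an apolipoprotein that follows liver fat, rose by 0.84 and Apom, which carries sphingosine-1-phosphate in HDL, fell by 0.81. The 4 falls became 1 without either SHP-/- array or OB-/-/SHP-/- replicate 2. Among 21 measured nuclear receptors and partners of SHP, 1 rose (4.76%) and 2 fell (9.52%), beside 4.95% and 5.62% of all genes. The rise was that of Pparg, and the falls were those of Nr0b2 and Rxra, the common partner of nuclear receptors. Rxra lost its call without any array other than the wild-type ones, with an adjusted p of up to 0.169.

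With limma, 0 of 12 glucose production genes were called, beside 10.6% of all genes. An unadjusted p below 0.05 was found for 5 of them, beside 25.7% of all genes. Leaving out either SHP-/- array gave 1 call. Pck1, the gatekeeper of gluconeogenesis, had 12.35 and 12.29 in SHP-/- and 12.09 and 11.86 in OB-/-/SHP-/-, adjusted p = 0.153. G6pc, which releases glucose, had 9.83 and 10.88 against 11.13 and 11.20, and Fbp1, the most strongly expressed of the list, had 0.00 (SE 0.13) as its difference. Glucose use moved more: of 19 genes of glucose uptake, glycolysis and glycogen, 7 rose and 2 fell, with a median of 0.35. Gbe1, the glycogen branching enzyme, rose by 1.16, Khk, which phosphorylates fructose, by 0.96 and Pygl, the liver glycogen phosphorylase, by 0.72. Pklr, the liver pyruvate kinase, rose by 1.03, with an adjusted p of 0.0752 without OB-/-/SHP-/- replicate 2. The 2 falls became 0 without SHP-/- replicate 1 or OB-/-/SHP-/- replicate 2.

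In insulin signalling 2 of 15 genes fell and 0 rose, Irs1 and Tsc22d3, a target of the insulin-restrained FOXO factors. Tsc22d3 lost its call without any array of these 2 genotypes, with an adjusted p of up to 0.123. Irs1, a docking protein of the insulin receptor, read 8.26 and 8.59 in SHP-/- and 7.40 and 7.23 in OB-/-/SHP-/-, adjusted p = 0.00233. Irs2, its counterpart, read 6.65 and 7.30 against 6.99 and 6.70 with overlapping groups and did not pass. Of 8 genes of the leptin receptor and its brakes, Socs3 and the receptor Lepr fell. Lepr fell by 0.77 and lost its call without SHP-/- replicate 1 or OB-/-/SHP-/- replicate 2. Another of its probe sets gave -2.06 and the remaining one -0.03. In iron handling, Hamp2, a copy of the iron hormone hepcidin, read 9.98 and 9.63 in SHP-/- and 12.51 and 12.52 in OB-/-/SHP-/-, a difference of 2.71 (SE 0.18). A second, far dimmer probe set gave 0.41 and did not pass.

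Glutathione and antioxidant genes were called higher more often than lower. Of 28 glutathione transferases and NRF2 targets, 9 rose and 4 fell, with a median of 0.37. In a fit of the 4 arrays of these 2 genotypes alone, 7 rose and 2 fell. Glutathione transferases couple glutathione to reactive compounds, and Gstm3, Gstt3, Gstm2 and Gsta2 rose by 2.74, 2.50, 2.03 and 2.24. For Gstt3 the levels were 8.06 and 8.02 in SHP-/- and 10.49 and 10.58 in OB-/-/SHP-/-, adjusted p = 4.61e-07. Nqo1, a quinone reductase induced by NRF2, rose by 1.49, while Nfe2l2, which encodes NRF2, fell by 0.64 and Gclc, which makes the glutathione precursor, by 0.74. Gclc had an adjusted p of 0.0584 without OB-/-/SHP-/- replicate 2. The 4 falls became 2, Nfe2l2 being 1 of those lost, without SHP-/- replicate 1 or OB-/-/SHP-/- replicate 2. Gstp1, which is male-biased, fell by 1.00. Members of the Gstm and Gsta families share long stretches of sequence, and their probe sets may read each other's transcripts.

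Of 32 genes of cytochrome P450 families 1, 2 and 3 and their regulators, 4 rose (12.5%) and 5 fell (15.6%). Of all genes 4.95% rose and 5.62% fell, and the list had no common direction. Cyp2f2, a naphthalene-oxidising P450, fell by 1.28 and Cyp1a2, which clears caffeine, by 0.84. Cyp2b10, the classic phenobarbital-inducible P450, rose by 1.22. The rises became 2 without SHP-/- replicate 2 or any wild-type or OB-/- array, and the falls became 3 without SHP-/- replicate 2.

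Protein folding and stress genes fell in part. Of 23 genes that respond to unfolded proteins or belong to the integrated stress response, 10 fell and 1 rose, with a median of -0.37. The falls became 6 in a fit of the 4 arrays of these 2 genotypes alone. The gene that rose, Edem1, lost its call when any 1 of the 8 arrays was left out. Asns, the asparagine synthetase induced by amino acid shortage, read 10.63 and 10.83 in SHP-/- and 8.00 and 6.44 in OB-/-/SHP-/-, a difference of -3.51 (SE 0.38), adjusted p = 0.000209. Hspa5, the main chaperone of the endoplasmic reticulum, read 11.45 and 11.71 in SHP-/- and 10.69 and 10.59 in OB-/-/SHP-/-, adjusted p = 0.00166. The 2 OB-/-/SHP-/- arrays were below both SHP-/- arrays for each, as they were for 24.6% of all genes. Creld2, Sdf2l1 and Manf, further proteins of that compartment induced by folding stress, fell by 1.36, 1.96 and 1.26. Atf4, the factor that drives Asns, had 10.06 and 9.95 in SHP-/- and 9.94 and 9.86 in OB-/-/SHP-/- and did not pass. The heat shock genes Hspa1b, Hsph1 and Hspb1, which are in none of the lists, had log2 differences of -3.12 (SE 0.26), -2.24 (SE 0.15) and -2.23 (SE 0.32), and the last 2 were named after their values were seen.

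Secreted defence proteins of the hepatocyte were lower in part. Of 28 complement and coagulation genes, 10 fell and 1 rose, with a median of -0.26, and the falls became 6 without OB-/-/SHP-/- replicate 2. The gene that rose was C1qa, which macrophages make. Beside C6 and C8a, C8b read 11.37 and 11.44 in SHP-/- and 8.93 and 9.15 in OB-/-/SHP-/-, a difference of -2.37 (SE 0.14). C1ra, a protease of the first complement component, fell by 0.96 and Mbl1, a mannose-binding lectin, by 0.83. Of 24 acute phase genes, 5 fell and 0 rose, but this count was 1 without SHP-/- replicate 2 or OB-/-/SHP-/- replicate 2 and 9 without SHP-/- replicate 1. Saa1, a serum amyloid A, read 9.87 and 12.60 in SHP-/- and 9.33 and 9.52 in OB-/-/SHP-/-, so SHP-/- replicate 2 was by far the highest of the 4. Il6ra, the receptor for interleukin 6, fell by 1.58, with an adjusted p of 0.0708 without OB-/-/SHP-/- replicate 2, and a second probe set gave -0.35.

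A programme of interferon-inducible genes rose in OB-/-/SHP-/- liver. Genes induced by interferons often carry short elements named GAS and ISRE before their starts, the latter bound by factors of the IRF family, and the large GTPases of the GBP family and the IRG family are among the strongest targets of interferon gamma in mouse cells, where they attack intracellular pathogens. All 11 GTPases measured rose, with a median of 2.79, beside 4.95% of all genes. The list was chosen with earlier results of these data known, so this share is a description and no test of enrichment. No gene was left out for low values, and 4 further members of the list had no probe set naming them alone. Without SHP-/- replicate 1, SHP-/- replicate 2 or OB-/-/SHP-/- replicate 1 the count was 10, the member lost in each being Gbp8, the dimmest.

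Gbp2 read 4.65 and 4.10 in SHP-/- and 9.80 and 9.80 in OB-/-/SHP-/-, a difference of 5.42 (SE 0.17), adjusted p = 1.08e-08. Its SHP-/- levels were dim, below the median of the arrays, so no fold is given for it. Igtp, an IRG GTPase, read 8.03 and 7.93 in SHP-/- and 11.55 and 11.63 in OB-/-/SHP-/-, which is 12.2-fold, adjusted p = 5.97e-08. Both OB-/-/SHP-/- arrays stood above all 6 other arrays of the study for each gene, and how often this held over all genes was not counted. Gbp6, Gbp2b, Gbp3 and Gbp7 rose by 5.27, 4.70, 3.54 and 2.79, and the IRG members Ifi47, Irgm1, Irgm2 and Iigp1 by 2.70, 2.59, 2.29 and 1.37. GBP genes lie in clusters of near copies, and some of these probe sets may read more than 1 of them.

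The regions before the starts of these genes are shown because their genes moved together. Windows from 250 bases before to 50 bases after the start were taken from RefSeq on GRCm38.p6, and 8 of the 11 GTPase genes had one, 9 windows in all. Letters of the ISRE core TTTCNNTTT and of the GAS element TTCNNNGAA were searched on both strands, and the GAS letters read the same on either. All matches are in capitals. The 4 windows below belong to Gbp2 (chr3:142620413-142620712, plus strand), Gbp7 (chr3:142530086-142530385, plus strand), Igtp (chr11:58199306-58199605, plus strand) and Irgm1 (chr11:48871371-48871670, minus strand).
Gbp2: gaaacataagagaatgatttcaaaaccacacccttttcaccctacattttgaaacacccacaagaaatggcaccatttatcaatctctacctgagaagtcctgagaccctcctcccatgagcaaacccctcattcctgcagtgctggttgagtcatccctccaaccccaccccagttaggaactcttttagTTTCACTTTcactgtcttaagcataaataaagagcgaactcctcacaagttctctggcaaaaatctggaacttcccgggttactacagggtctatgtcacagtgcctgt
Gbp7: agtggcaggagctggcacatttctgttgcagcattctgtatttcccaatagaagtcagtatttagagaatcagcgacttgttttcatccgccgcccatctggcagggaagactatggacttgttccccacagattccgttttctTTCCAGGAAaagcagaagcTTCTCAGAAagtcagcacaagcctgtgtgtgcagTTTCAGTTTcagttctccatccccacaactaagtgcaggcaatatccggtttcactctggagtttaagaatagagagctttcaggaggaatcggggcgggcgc
Igtp: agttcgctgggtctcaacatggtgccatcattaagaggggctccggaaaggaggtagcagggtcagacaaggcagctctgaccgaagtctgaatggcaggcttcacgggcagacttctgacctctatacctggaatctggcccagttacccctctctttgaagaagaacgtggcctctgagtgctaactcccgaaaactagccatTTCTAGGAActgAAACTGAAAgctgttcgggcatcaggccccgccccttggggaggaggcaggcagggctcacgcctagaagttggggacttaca
Irgm1: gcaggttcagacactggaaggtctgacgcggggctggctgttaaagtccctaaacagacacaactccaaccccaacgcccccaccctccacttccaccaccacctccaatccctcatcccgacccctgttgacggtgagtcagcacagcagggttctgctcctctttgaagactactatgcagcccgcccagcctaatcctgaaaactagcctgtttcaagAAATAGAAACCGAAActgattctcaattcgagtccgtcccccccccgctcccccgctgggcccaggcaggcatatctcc
In Gbp2 the capitals are 1 ISRE core, which begins 59 bases before the start. Gbp7 holds 2 GAS elements followed by 1 ISRE core. Igtp holds 1 GAS element and then 1 ISRE core on the other strand, and in Irgm1 the capitals are 2 overlapping ISRE cores on the other strand.

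Of the 9 GTPase windows, 8 held the ISRE core (88.9%) and 3 held the GAS element (33.3%). Of all 32851 windows in the RefSeq table, 10.6% held the ISRE core and 8.3% the GAS element. Among 27 windows of the other interferon response and antigen presentation genes, 22.2% held the ISRE core and 18.5% the GAS element. A match of letters is a description and not a site of binding, and both motifs were chosen with the expression results known.

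Of 29 other genes of the interferon response and antigen presentation, 15 rose and 0 fell, with a median of 0.85. Psmb9, a subunit of the immunoproteasome, read 7.90 and 7.62 in SHP-/- and 10.15 and 10.23 in OB-/-/SHP-/-, a difference of 2.43 (SE 0.14), adjusted p = 1.98e-06. Its partners Psmb8 and Psmb10 rose by 1.38 and 1.40. Tap1, which carries peptides to class I molecules, read 7.35 and 7.30 in SHP-/- and 9.01 and 9.02 in OB-/-/SHP-/-, a difference of 1.69 (SE 0.15), and its 3 other probe sets, all dim, did not pass. The OB-/-/SHP-/- arrays were higher without overlap for each of these genes, as they were for 29.3% of all genes.

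The transcription factors Irf1 and Irf8, which respond to interferon gamma, rose by 1.22 and 1.16. Cxcl9, a chemokine that attracts T cells, read 5.88 and 5.58 in SHP-/- and 6.81 and 7.42 in OB-/-/SHP-/-, a rise of 1.38. Genes better known as targets of type I interferon rose too, with Ifit3 by 1.35, Ifit1 by 1.25, Usp18 by 1.32 and Irf7 by 0.99. B2m, the light chain of class I molecules, had 12.99 and 12.96 in SHP-/- and 13.20 and 13.17 in OB-/-/SHP-/- and did not pass. Cd274, the checkpoint ligand PD-L1, rose by 2.92, and Zbp1, a sensor of Z-form nucleic acids, by 2.14. BC023105, for which no role is given here, read 8.15 and 6.69 in SHP-/- and 11.28 and 11.40 in OB-/-/SHP-/-, a difference of 3.92 (SE 0.33).

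**Figure D4:**
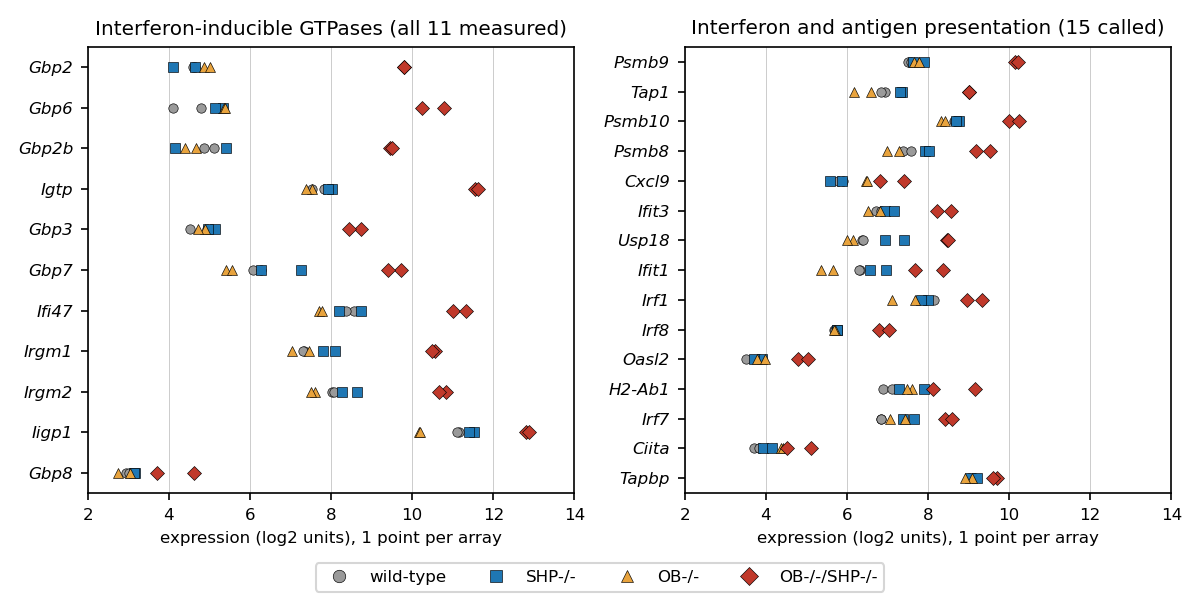
Expression (log2 units, horizontal axis) of the 11 measured interferon-inducible GTPases on the left and the 15 called genes of interferon response and antigen presentation on the right, 1 point per array for all 4 genotypes. For Gbp2 the OB-/-/SHP-/- diamonds lie at 9.80 and 9.80, against 4.10 to 5.02 for the 6 other points.

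Markers of other cell types were measured beside these results. In whole liver, a change in the number of cells of a type and a change in RNA per cell cannot be told apart. The 14 hepatocyte markers had 0 calls in limma, beside 10.6% of all genes, and 2 had an unadjusted p below 0.05, beside 25.7% of all genes. The hepatocyte list had a median of -0.13, with mean levels of 12.77 and 12.78 in SHP-/- and 12.68 and 12.71 in OB-/-/SHP-/-. The 22 lymphocyte and neutrophil markers had 1 rise (4.55%, beside 4.95% of all genes), Ighm, the heavy chain of IgM. Their median was 0.13, with mean levels of 4.79 and 4.68 in SHP-/- against 4.72 and 4.89 in OB-/-/SHP-/-. The T cell marker Cd3e had 6.32 and 6.23 in SHP-/- and 6.51 and 6.62 in OB-/-/SHP-/-, adjusted p = 0.315, and Ighm rose on 2 of its 11 probe sets.

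Of 26 macrophage markers, 6 rose and 0 fell, with a median of 0.55 and mean levels of 6.69 and 6.16 in SHP-/- and 6.83 and 7.11 in OB-/-/SHP-/-. The count was 2 without SHP-/- replicate 2 and 12 without SHP-/- replicate 1, so the 2 SHP-/- arrays differed in these genes. Lgals3, a galectin of activated macrophages, rose by 1.32 and Mpeg1, a pore-forming protein of macrophages, by 1.02. The complement genes C1qa, C1qb and C1qc rose by 0.98, 1.28 and 1.12, each losing its call without SHP-/- replicate 2 or OB-/-/SHP-/- replicate 2. Clec4f, which marks the resident Kupffer cells, had 8.32 and 7.39 in SHP-/- and 7.90 and 8.02 in OB-/-/SHP-/- and did not pass. The macrophage markers moved in the same direction as the interferon genes here. In OB-/- against wild-type, 17 of the 26 macrophage markers rose, beside 7.58% of all genes in that comparison. Their median there was 1.06, while the GTPases had a median of -0.23. The part of macrophages in the interferon result was not tested.

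Of 18 endothelial markers 4 rose, and 2 without SHP-/- replicate 2. Lyve1, a hyaluronan receptor of sinusoidal endothelium, rose by 1.93 and Pecam1, found on all endothelium, by 1.15. Of all genes 4.95% rose and 5.62% fell, to be set beside the counts in this paragraph. Of 27 stellate cell and matrix genes 3 rose, and 0 without OB-/-/SHP-/- replicate 2 but 5 without OB-/-/SHP-/- replicate 1. Col3a1, a fibrillar collagen, had 6.43 and 6.00 in SHP-/- and 6.23 and 6.89 in OB-/-/SHP-/- and did not pass. Of 9 cholangiocyte markers 1 rose and 2 fell, and Krt19, which defines these cells, had 0.09 (SE 0.13). The falls became 1 without SHP-/- replicate 2, either OB-/- array or either OB-/-/SHP-/- array, the gene lost being Sox9, a transcription factor of bile ducts, with an adjusted p of up to 0.123. Among 7 adipocyte markers 3 rose, Cidea, Fabp4 and Retn, while Adipoq and Lep, which define fat cells, stayed between 2.79 and 3.53 on all 4 arrays. Fabp4, a fatty acid carrier also found in macrophages, rose by 1.00, and 2 of its 4 probe sets did not pass. Lgals1 and Ly6d, a galectin and a small membrane protein outside these lists, rose by 3.55 and 3.40.

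Of 20 pancreatic exocrine genes, 3 rose and 1 fell, beside 4.95% and 5.62% of all genes. Clps, the cofactor of pancreatic lipase, read 2.83 and 2.94 in SHP-/- and 4.28 and 4.20 in OB-/-/SHP-/-, still below the median of the arrays. Prss2, a trypsinogen, lost its call without any array other than those of OB-/-, and Cela1, an elastase, was the gene that fell. Of 6 erythroid markers 1 fell, Alas2, the first enzyme of haem synthesis in red cells. Of 13 muscle, kidney and gut markers 1 rose (7.69%, near the 4.95% of all genes), the intestinal fatty acid carrier Fabp2. Both lost their calls without OB-/-/SHP-/- replicate 2, and Alas2 also without SHP-/- replicate 2, with adjusted p of 0.0565 and up to 0.124.

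Cell cycle genes rose in part, 8 of 26 with 1 fall, and 4 rose without OB-/-/SHP-/- replicate 2. The fall, that of the replication helicase subunit Mcm7, was lost without either OB-/- array or either OB-/-/SHP-/- array. Cdk1, the mitotic kinase, read 4.39 and 4.14 in SHP-/- and 5.53 and 5.94 in OB-/-/SHP-/-, adjusted p = 0.000241. Ccnb2, its cyclin, and Cdc20, which starts anaphase, rose by 1.57 and 1.54, and Cdkn1a, which halts the cycle, by 1.72. Cdk1, Ccnb2 and Cdc20 were dim in SHP-/- liver, below the median of the arrays, while Cdkn1a was above it. Mcm10, a replication factor not in the list, fell by 2.59 on its brighter probe set and had -0.42 on the other.

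The immediate-early genes, which respond within minutes to stimuli that include tissue handling, set the 2 SHP-/- arrays apart. Fos read 11.95 and 6.98 in SHP-/- and 5.66 and 5.17 in OB-/-/SHP-/-, and Egr1 read 11.38 and 9.12 against 7.35 and 6.45. For Jun the levels were 10.74 and 6.95 against 8.24 and 8.44. SHP-/- replicate 1 was the highest array for each, while replicate 2 lay below the other group for Jun. Of 19 genes 2 fell, Fos and Egr1, and 1 rose, Egr3, which lost its call without either SHP-/- array or OB-/-/SHP-/- replicate 2, and without SHP-/- replicate 2 the falls became 13. The call for Fos, adjusted p = 0.0375, was lost without any array other than those of SHP-/-, with an adjusted p of up to 0.164. Cxcl1, a chemokine that attracts neutrophils, had 9.14 and 7.78 in SHP-/- and 6.32 and 5.02 in OB-/-/SHP-/-, and its adjusted p was 0.0744 without OB-/-/SHP-/- replicate 2. Of 17 clock genes 3 rose, and 0 without OB-/-/SHP-/- replicate 2. The clock output gene Dbp read 10.77 and 8.72 in SHP-/- and 9.41 and 9.85 in OB-/-/SHP-/-, with the SHP-/- arrays on both sides of the others. The labels give no hour of day at which livers were taken. Of all genes 4.95% rose and 5.62% fell, to be set beside the counts of both lists.

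The same loss of leptin can be read in liver with intact SHP from the other 4 arrays, so the 2 comparisons share no array. OB-/- minus wild-type changed 2100 genes (16.9%), 940 higher (7.58%) and 1160 lower (9.36%), a count that was between 956 and 1165 without any 1 of these 4 arrays. The balance of directions turned with it, to 531 higher and 425 lower without wild-type replicate 1 and 433 higher and 732 lower without wild-type replicate 2. The 3′ minus 5′ signal of Actb was 1.89 and 1.87 in wild-type and 0.77 and 0.89 in OB-/-, and that of Gapdh 0.79 and 1.00 against -0.07 and -0.01, and the part of RNA integrity in these calls was not tested. Across all 12393 genes the 2 sets of differences correlated with a Pearson r of 0.72 and a Spearman rho of 0.65, a description across genes, which are not independent replicates. Of the 1311 genes called without SHP, 64.1% were also called the same way with SHP, 360 higher and 481 lower, and these were 40.05% of the calls with SHP. A further 458 genes were called without SHP alone and 1247 with SHP alone, which does not show that their effects differed. With SHP, 14 of the 17 male-biased genes fell and 12 of the 17 female-biased genes rose. Sult2a2 rose by 7.75 with SHP, Slco1a1 had -6.46, and the medians of the male- and female-biased lists were -1.26 and 1.96. Cd36 rose by 3.91 with SHP, beside 4.35 without.

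The test of the difference itself, the interaction of leptin loss with SHP, called 68 of 12393 genes (0.549%), with the effect higher without SHP for 44 (0.355%) and lower for 24 (0.194%). This count was 113 without SHP-/- replicate 2, 38 and 32 without wild-type replicates 1 and 2, and 39 without either OB-/- array. Interferon genes made up much of the first set: 10 of the 11 GTPases were called higher, Gbp8 being the exception, and 9 of the 29 other interferon and antigen presentation genes. Both lists were chosen with earlier results of these data known, so these counts are a description. Gbp2 read 4.60 and 4.63 in wild-type and 4.86 and 5.02 in OB-/-, so its difference with SHP was 0.32, and the interaction was 5.10 (SE 0.25), adjusted p = 3.8e-06. For the GTPases as a list the median difference was -0.23 with SHP and 2.79 without. Sult3a1 was called as well. It read 3.20 and 2.91 in wild-type and 6.24 and 5.29 in OB-/-, a rise of 2.71 with SHP against 7.22 without, and the interaction was 4.51 (SE 0.38), adjusted p = 0.000107.

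Among genes with a lower effect without SHP, Cidea led with an interaction of -4.17 (SE 0.29), adjusted p = 4.63e-05, since its difference was 6.40 with SHP and 2.23 without. Pltp rose by 3.90 with SHP and 2.03 without. Of the 20 pancreatic exocrine genes 5 were called, among them Clps, Prss2 and Zg16, which rose by 4.49, 3.73 and 3.72 with SHP. Reg3b, an antimicrobial lectin of gut and pancreas, rose by 2.95 with SHP and had 0.11 without. The collagen gene Col4a1 rose by 1.52 with SHP and had 0.01 without. Cyp2b10 rose by 2.82 with SHP and 1.22 without, and Cyp2f2 had 0.08 with SHP while it fell by 1.28 without. Irs2 fell by 1.79 with SHP and had -0.13 without, and its interaction had adjusted p = 0.0202.

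For 12 genes the 2 comparisons were called in opposite directions, and all are named here after their values were seen. BC023105, Ifi47, Ifit1, Iigp1, Inpp1, Irf1, Parp14, Rtp4, Tap1 and Trafd1 rose without SHP and fell with it, the largest such contrast being BC023105 with 3.92 and -1.67. Most of them are interferon-inducible. Parp14 lost its call without SHP when any 1 array was left out, Inpp1 without replicate 1 of either group, Trafd1 without SHP-/- replicate 1 or OB-/-/SHP-/- replicate 2, and Sntb1 without either SHP-/- array or OB-/-/SHP-/- replicate 2. Adi1, an enzyme of methionine salvage, and Sntb1, a syntrophin of the membrane skeleton, fell without SHP and rose with it. Adi1 read 9.76 and 10.32 in SHP-/-, 8.55 and 7.73 in OB-/-/SHP-/-, 9.74 and 8.91 in wild-type and 10.86 and 10.70 in OB-/-, and its interaction was -3.36 (SE 0.43). A second probe set of Adi1 gave -3.44 without SHP, and the remaining one gave 0.07.

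**Figure D5:**
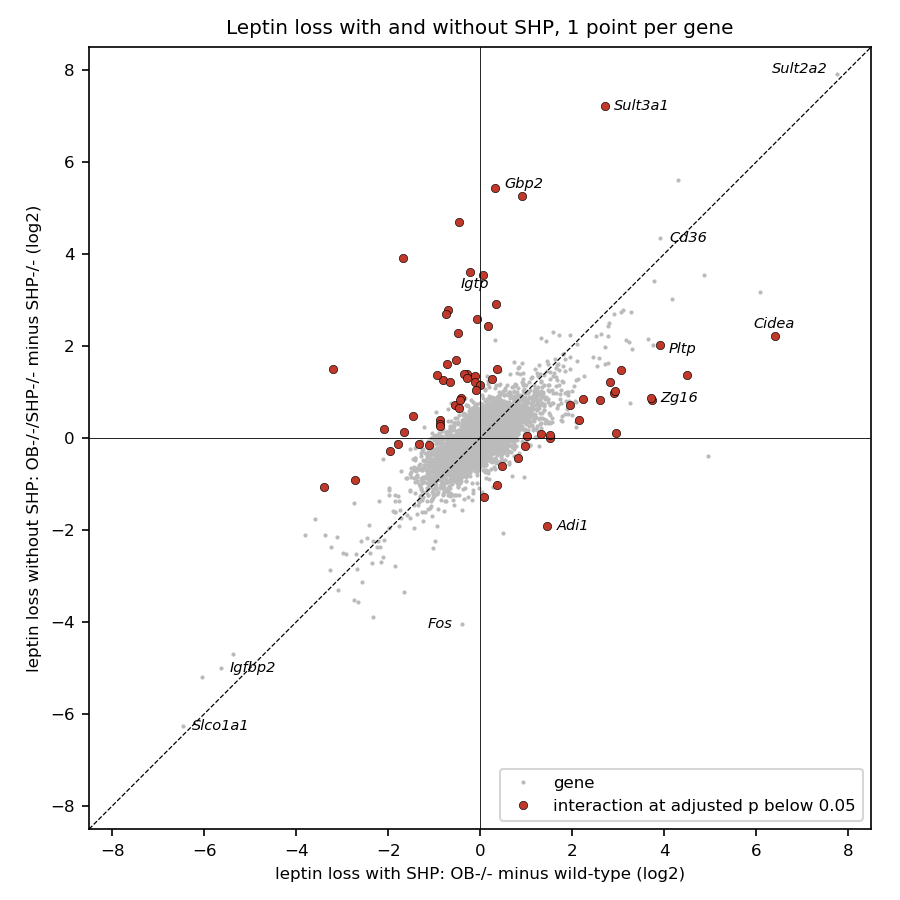
Log2 difference for leptin loss with SHP (OB-/- minus wild-type, horizontal axis) and without SHP (OB-/-/SHP-/- minus SHP-/-, vertical axis), 1 point per gene, with large points for the 68 genes whose interaction was called and a dashed line where both are equal. Sult2a2 and Slco1a1 lie near the line, while Gbp2, Igtp and Sult3a1 lie far above it and Cidea far below.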

How the data were processed

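Gene expression in mouse liver was measured on 8 single-colour Affymetrix arrays, 2 for each of 4 genotypes, from total RNA. The deposited values are log-scale expression per probe set, already normalized between arrays by the authors in R 2.15.0, per the submitters' processing notes. How background was corrected and probes were summarised is not given in the sources used here. The log2 base of the deposited values is not stated either, and was read from their range of 2.20 to 14.19. Array medians ran from 5.45 to 5.56, and an array gives no count of molecules, so its precision rests on the number of arrays.

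Of 22690 probe sets, 64 controls were left out. The platform annotation gave 1 gene for 20380 of the remaining 22626, several for 691 and none for 1555. Where a gene had several probe sets, as 4956 did, that with the highest mean was used, which left 12393 genes with no filter on low values. With limma 3.58.1 (R 4.3.3), 1 linear model with a mean per genotype took in all 8 arrays, with 4 residual degrees of freedom and 7.16 prior ones. The Benjamini-Hochberg adjustment took in every gene tested. Alternatives were other normalisations, filters, probe set rules, the 4 arrays alone, a replicate block and each array left out. The method was also tested on simulated data. Promoters came from RefSeq on GRCm38.p6. The labels give no batches.

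The members and the 40 gene lists, with 709 of 805 genes measured, were chosen with earlier results of these data known. Genes were named by rule: Nr0b2 and Lep, the 15 largest rises and falls among called genes with groups that do not overlap, a symbol that is not a clone name and a higher group at or above the median, for each list up to 5 called members, those with the smallest adjusted p, the members at the highest level where a list had no call, the 8 largest interactions in each direction, and list members more than 2 log2 units apart between replicates. The following were named after their values were seen: Acacb, Acly, Adipoq, Aqp8, Atf4, Avpr1a, B2m, BC023105, Cd3e, Cdh1, Cish, Clec4f, Col3a1, Col4a1, Cpt1a, Cxcl9, Cyp2d9, Cyp8b1, Edem1, Egfr, Elovl2, Elovl6, Fasn, Foxa1, Foxa3, Foxq1, G0s2, G6pc, Gbp8, Gclc, Ghr, Gsta2, Gstp1, Hhex, Hsd17b6, Hspb1, Hsph1, Ifi47, Ifit1, Ifit3, Igf1, Iigp1, Inpp1, Irf1, Irf7, Irgm2, Irs2, Krt19, Lifr, Mcm10, Mcm7, Mup3, Nfe2l2, Parp14, Pck1, Pklr, Plin2, Pnpla2, Reg3b, Rtp4, Scd1, Slc22a27, Sntb1, Srebf2, Trafd1, Usp18 and Zbp1.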

Additional observations from a re-analysis of the deposited data

Results flagged for a closer look

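The genes below are those named in the text for which the effect of leptin loss differed between liver without SHP and liver with SHP, by the interaction term of the limma fit with an adjusted p below 0.05. A value is the log2 difference OB-/-/SHP-/- minus SHP-/- less the difference OB-/- minus wild-type, with 2 arrays in each genotype. Every value is a difference of differences, so a positive one can come from a greater rise or from a lesser fall.

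Among the interferon-inducible GTPases the interaction was 5.15 for Gbp2b, 5.10 for Gbp2, 4.35 for Gbp6, 3.84 for Igtp, 3.48 for Gbp7, 3.47 for Gbp3, 3.44 for Ifi47, 2.77 for Irgm2, 2.66 for Irgm1 and 2.32 for Iigp1. In antigen presentation it was 2.25 for Psmb9, 2.20 for Tap1, 1.73 for Psmb8 and 1.68 for Psmb10. The interferon response factors had 1.87 for Irf1 and 1.16 for Irf8, and other interferon-inducible genes had 2.32 for Rtp4, 2.05 for Ifit1, 1.95 for Parp14, 1.61 for Usp18 and 1.46 for Ifit3. Cd274, the checkpoint ligand, had 2.58, Ighm 1.32, Trafd1 1.11, Inpp1 1.25 and BC023105 5.59.

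In metabolism, the sulfotransferase Sult3a1 had 4.51 and the insulin receptor substrate Irs2 1.66. The droplet protein Cidea had -4.17, the phospholipid transfer protein Pltp -1.87, and the P450 genes Cyp2b10 and Cyp2f2 -1.60 and -1.36. The carboxylesterase Ces1g had -1.59, and Adi1 of methionine salvage -3.36. Genes expressed in exocrine pancreas had -3.13 (Clps), -2.90 (Prss2) and -2.86 (Zg16), and the lectin Reg3b had -2.84. The collagen Col4a1 had -1.51, the protease inhibitors Wfdc2 and Serpinb1a -1.91 and -1.76, and the syntrophin Sntb1 -1.08. The protease gene Ctse had 4.69, although a second probe set of it moved the other way between OB-/-/SHP-/- and SHP-/-, at -1.15.

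Outside the genes tested, 2246 probe sets named no gene or several. Of these, 170 were called in OB-/-/SHP-/- against SHP-/- in a fit over all probe sets, 93 higher and 77 lower.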

How the results depend on the processing

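Without SHP, 1311 genes were called, and this was 318 with a 2-fold minimum, 615 from these 4 arrays alone and 632 without SHP-/- replicate 1 and OB-/- replicate 1 together. Leaving out single arrays gave 600 to 1307. With SHP, 2100 calls became 3592 over every probe set, 510 with a 2-fold minimum and 1121 without those 2 arrays together, and 956 to 2234 with single arrays left out. The 68 interaction calls became 120 over every probe set, 39 without those 2 arrays together, and 32 to 113 with single arrays left out. These settings change by construction how many arrays or probe sets enter or the size that a call needs. Equal array medians, quantile normalisation, leaving out dim genes, limma's trend and robust options, the mean of probe sets and the removal of shared probe sets kept each of the 3 counts within 1.5 times.

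Some named genes changed sign. Without the probe sets marked as shared, Ighm had -0.75 and Zg16 had -0.28. Jun had 1.40 without SHP-/- replicate 1 and -2.40 without SHP-/- replicate 2, Orm2 had -1.09 and 1.93, and Dbp had 0.91 and -1.14. Jun and Orm2 kept 1.40 and -1.09 without SHP-/- replicate 1 and OB-/- replicate 1 together. Cyp2b9 had 2.81 without OB-/-/SHP-/- replicate 1 and -3.59 without OB-/-/SHP-/- replicate 2. The cause was not tested beyond these values. Of 209 named genes that were called, 138 stayed called with each array left out in turn and 166 in the fit of the 4 arrays alone.

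With the replicate block, the counts were 1359 without SHP, 2147 with SHP and 77 for the interaction, and 208 of the 209 named calls remained. The deviations of same-numbered arrays correlated at -0.008 between SHP-/- and OB-/-/SHP-/- and between -0.107 and 0.196 for the other pairs of genotypes. A single deviation per genotype cannot tell whether same-numbered arrays belong together. With 2 arrays a genotype, the number of arrays limits the precision of every value.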

Other observations

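Several channels, carriers and enzymes outside the lists changed. Slc22a27, an organic anion transporter of the SLC22 family, rose by 2.13 and Aqp8, a water channel of the hepatocyte, by 1.99. Aqp4, another water channel, rose by 2.78. Hsd17b6, a steroid dehydrogenase, fell by 2.36. These 4 kept their calls when any single array was left out, while the forkhead factor Foxq1, which fell by 1.60, lost it without OB-/-/SHP-/- replicate 2.

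Of 27 genes of amino acid catabolism and the urea cycle, 2 rose and 3 fell, beside 4.95% and 5.62% of all genes. The median was -0.06, and most of the list did not pass. The rises became 1 without OB-/-/SHP-/- replicate 2, and the falls 2 without that array, OB-/-/SHP-/- replicate 1 or SHP-/- replicate 2.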
